A study of Mus musculus with 6 samples.

Results

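The basement membrane genes described here were 10 of the 26264 genes in the authors' expression table, taken by symbol: Col4a1 and Col4a2, which encode the chains of the common form of collagen IV; the laminin chain genes Lama4, Lama5, Lamb1, Lamb2 and Lamc1; the nidogen genes Nid1 and Nid2; and Hspg2, which encodes the heparan sulfate proteoglycan perlecan. RNA with poly(A) tails was sequenced from cells sorted for CD31, a surface protein of endothelium, after dissociation of 1 liver lobe. All mice were C57BL6. Feeding lasted 1 month, on control chow or on chow holding 1200 ppm PLX5622, with 3 biological replicates per diet and 6 libraries in all. PLX5622 is an inhibitor of the receptor CSF1R, on which most tissue macrophages depend, and the series asked whether it acts on cholesterol metabolism in endothelium outside the brain. The labels give no age or sex and no statement that same-numbered replicates were handled together. The 10 genes are treated as selected on their TPM in the control and PLX5622 libraries, since those values were known when the set was drawn up, so the difference between diets is described without a test.

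Basement membranes are sheets of matrix beneath endothelium and epithelium. Laminins, each a trimer of an alpha, a beta and a gamma chain, assemble on the cell surface through integrins and dystroglycan, and collagen IV forms a crosslinked network beside them. Nidogens and perlecan link the pair of networks. Collagen IV protomers of the common form hold alpha1 and alpha2 chains, and laminins with alpha4 or alpha5 chains are the characteristic ones of blood vessels. The sinusoids of the liver are unusual in that their fenestrated endothelium lacks a continuous basement membrane, whereas portal and central vessels have one.

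Col4a1 and Col4a2 lie head to head on mouse chromosome 8 and are transcribed away from each other. In the RefSeq promoter table (GRCm38.p6, a build older than the mm39 named by the submitters) the start of Col4a2 on the plus strand is at 11312805 and that of Col4a1 on the minus strand is at 11312826, so the annotated transcripts overlap by 22 bases and the promoter windows, which run from 250 bases before to 50 bases after each start, share 78 bases. The 22 bases between the starts are shown because they are the piece of DNA that both genes begin in. They occupy chr8:11312805-11312826 and are given on the strand of each gene, with no capitals.
Col4a2 (plus strand): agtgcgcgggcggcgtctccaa
Col4a1 (minus strand): ttggagacgccgcccgcgcact
Of 27025 genes with a window in the table, 11.9% had a window that overlapped one of another gene on the opposite strand. Libraries were made without strand information, and reads within the overlap cannot be assigned to either gene.

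Promoter windows were found for 7 of the 10 genes. Their GC content was 74.0% for Col4a1, 73.7% for Col4a2, 72.7% for Lama5, 70.3% for Hspg2, 64.7% for Nid1, 63.7% for Lamb1 and 44.0% for Lamb2, against a median of 52.7% over 32851 windows. Lamb2 alone among the 7 was below that median, and it also held 4 CpG dinucleotides where the others held 18 to 37 and the median window 7. The GC box GGGCGG, read on both strands, occurred 5 times in the Hspg2 window, 4 times in Lama5, 3 times in Col4a2, 2 times in Lamb1, 1 time each in Col4a1 and Nid1 and not in Lamb2, while 35.7% of all windows held at least 1. The CCAAT motif was present in the windows of Col4a1, Col4a2, Lamb1 and Nid1 and in 37.4% of all windows. TATAAA and the AP-1 motif TGANTCA were in none of the 7 windows, against 13.6% and 7.81% of all windows, and CAGAC, the core of the SMAD element, was in Lama5, Col4a2, Lamb2 and Lamb1 and in 49.6% of all windows. A match is only a run of letters and says nothing of binding, and CpG-rich windows hold GC boxes more readily. Stretches upstream of the annotated exons are shown for a pair of genes whose levels were lower on PLX5622, Hspg2 and Lama5, and for the member with the highest fold change, Lamb1, with GC boxes on either strand in capitals. That of Hspg2 is chr4:137468553-137468768 on the plus strand, that of Lama5 is chr2:180225860-180226109 on the minus strand and that of Lamb1 is chr12:31265043-31265233 on the plus strand (all GRCm38.p6, RefSeq).
Hspg2: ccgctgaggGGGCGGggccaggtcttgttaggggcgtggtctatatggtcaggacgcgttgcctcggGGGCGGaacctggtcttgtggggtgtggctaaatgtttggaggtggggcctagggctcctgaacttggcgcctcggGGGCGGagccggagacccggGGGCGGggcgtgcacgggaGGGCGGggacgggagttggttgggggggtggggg
Lama5: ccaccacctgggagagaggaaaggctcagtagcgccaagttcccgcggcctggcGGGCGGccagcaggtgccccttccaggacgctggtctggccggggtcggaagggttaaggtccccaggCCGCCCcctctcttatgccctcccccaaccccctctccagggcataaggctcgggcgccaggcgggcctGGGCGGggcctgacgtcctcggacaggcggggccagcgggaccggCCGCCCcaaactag
Lamb1: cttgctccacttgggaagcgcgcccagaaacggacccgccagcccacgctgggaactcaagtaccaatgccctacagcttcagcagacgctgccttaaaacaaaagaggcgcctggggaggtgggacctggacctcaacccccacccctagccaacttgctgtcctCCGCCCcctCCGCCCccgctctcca

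Read numbers recovered from the deposited values were between 14517959 and 32732212 per library. Pecam1, the gene of CD31, stood at 1682 ± 259 TPM with control diet and 1712 ± 148 TPM on PLX5622 (SD, n = 3 each), where TPM is a length-scaled share of transcripts that can be compared between genes. The libraries differed in endothelial marker levels within each diet. Summed over 9 sinusoidal markers, replicate 1 of each diet was lowest, at 6330 TPM (control) and 6776 TPM (PLX5622). Control replicates 2 and 3 stood at 11841 and 12363 TPM, and PLX5622 replicates 2 and 3 at 9820 and 9883 TPM. Of these markers 7 had a log2 fold change of PLX5622 over control below 0 and 2 above, with a median of -0.19. Fcgr2b was highest in PLX5622 replicate 1, at 359 TPM, and Stab1 was lowest in PLX5622 replicate 2, at 1280 TPM. The others were lowest in replicate 1 of each diet. Replicate 1 of each diet was highest in the sum of 10 continuous vessel markers, at 7525 and 6981 TPM against 4820.0 to 6210 TPM. Single markers of that list were split in these libraries. Vwf stood at 2984 and 2827 TPM there against 1625 to 2333 TPM in the others, whereas Cldn5, a tight junction gene, was lowest there, at 458 and 557 TPM against 759.6 to 813 TPM, as were Efnb2 and Sox17. Hepatocyte markers were also unequal, with a sum over 10 genes of 2007 to 4740 TPM in the control libraries and 1299 to 2669 TPM in the PLX5622 libraries, and 10 Kupffer cell markers summed to 92.0 to 163 TPM and 44.3 to 88.6 TPM. In bulk RNA fewer cells of a type and less RNA per cell cannot be told apart.

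**Figure D1:**
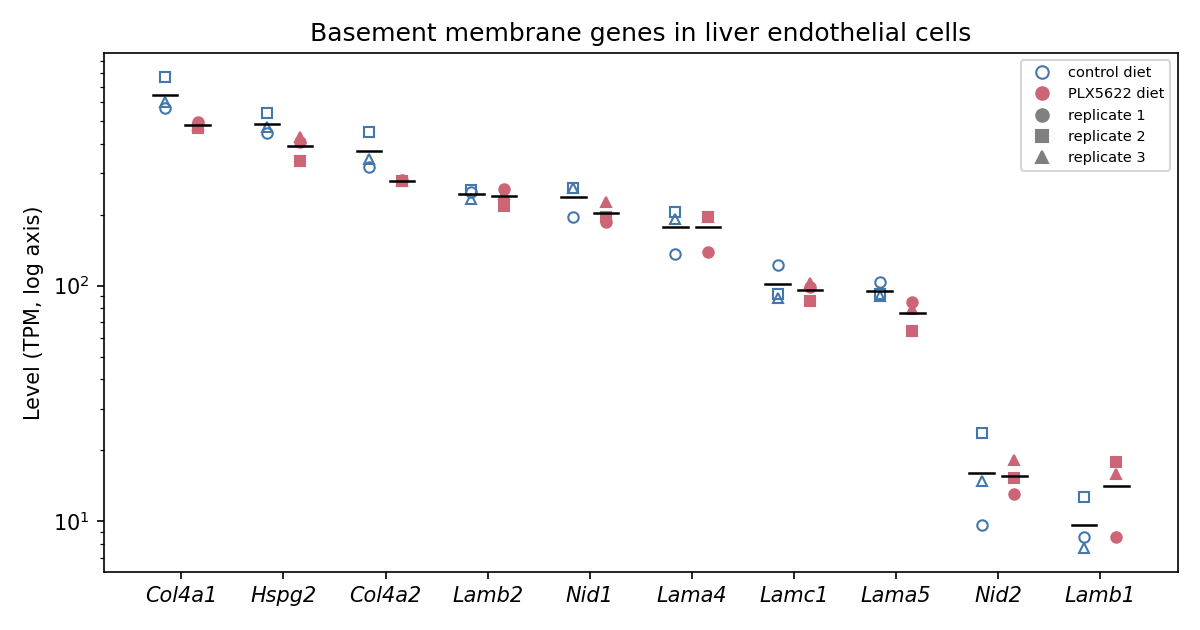
Level of each gene in TPM on a log axis, ordered by mean, with 1 point per library (open, control diet; filled, PLX5622 diet; symbols give the replicate number) and a bar at the mean of 3 libraries. The points span from 8 genes above 60 TPM to Nid2 and Lamb1 below 25 TPM, and the diets do not overlap in Col4a1, Hspg2, Col4a2 and Lama5.

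All 10 genes were expressed in every library, with 224 to 87163 recovered reads per gene and library, and all passed the filter at a mean of 1 TPM. Col4a1 was the most abundant, at a mean of 563 TPM over the 6 libraries and place 257 among 13739 genes. Hspg2 followed at 437 TPM, Col4a2 at 325 TPM, Lamb2 at 243 TPM, Nid1 at 221 TPM and Lama4 at 177 TPM. Lamc1 and Lama5 stood at 98.5 and 85.8 TPM. Nid2 and Lamb1 were far lower, at 15.8 and 11.9 TPM, with Lamb1 at place 9018. The order was set by the mean of these same libraries, so the steps between neighbours are described within libraries, with no test. Col4a1 was above Hspg2, Hspg2 above Col4a2, Col4a2 above Lamb2, Lama4 above Lamc1 and Lama5 above Nid2 in 6 of 6 libraries. The step from Lama5 to Nid2 was the widest, at 2.41 ± 0.52 on the log2 scale (SD, n = 6). Nid1 was above Lama4, Lamc1 above Lama5 and Nid2 above Lamb1 in 5 of 6 libraries, and Nid2 differed from Lamb1 by less than its spread, at 0.40 ± 0.43 on the log2 scale (SD, n = 6). Lamb2 was above Nid1 in 4 of 6 libraries, by 0.15 ± 0.23 (SD, n = 6), which is also within the spread.

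Across all genes limma called 0 of 13739 between the diets, which is 0% of genes tested, and 459 had an unadjusted p under 0.05. With voom on the recovered reads limma called 0 of 13470 genes, and 407 had an unadjusted p under 0.05. By adjusted p, 11 of 15097 genes (0.0729%) pass in the authors' deposited table. None of the 10 basement membrane genes is called in either. As a description, 8 had a log2 fold change of PLX5622 over control below 0 and 2 above it, where 53.8% of all genes lay below 0, and their median was -0.15, against -0.017 for all genes tested. In 4 members, Col4a1, Col4a2, Lama5 and Hspg2, every PLX5622 library was lower than every control library, which held for 4.5% of all genes tested. No member had every PLX5622 library higher, against 4.18% of all genes. The diets did not overlap in either direction for 8.68% of all genes, and nothing is read from these shares, since the same contrast chose the members. Fold changes and their 95% intervals are from the limma fit on the log2(TPM + 1) scale, which understates differences of weakly expressed genes.

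**Figure D2:**
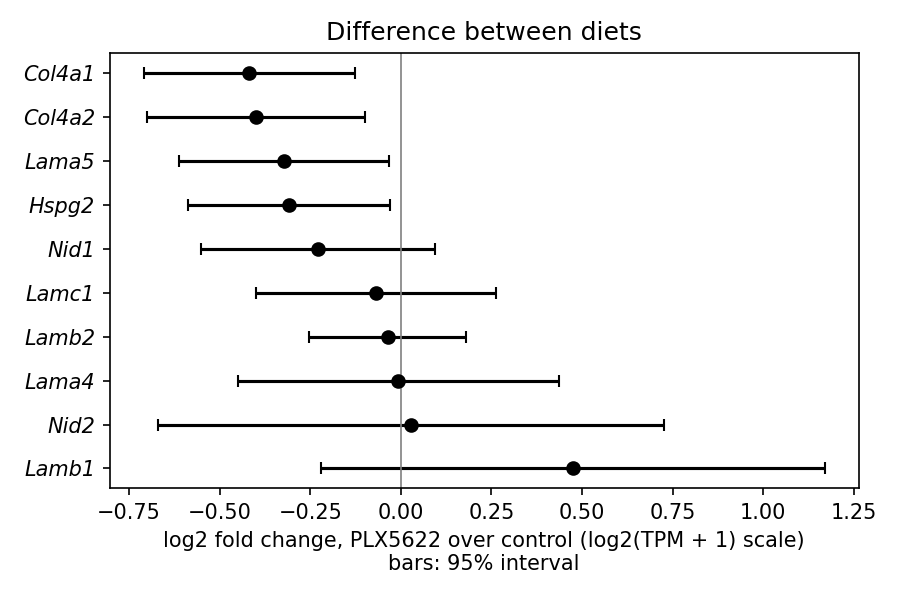
Difference in log2(TPM + 1), PLX5622 minus control, for the 10 genes, with bars for the 95% interval of the limma fit over 3 libraries per diet. Values run from -0.42 in Col4a1 to 0.47 in Lamb1.

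Collagen IV gave the widest separation between the diets. Col4a1 stood at 568, 772 and 601 TPM in control replicates 1 to 3 and at 493, 466 and 479 TPM in PLX5622 replicates 1 to 3. Every PLX5622 value lay below every control value, and the PLX5622 libraries were close to one another, at 479 ± 13.7 TPM against 647 ± 109 TPM (SD, n = 3 each). The mean on PLX5622 was 74.1% of that on the control diet, a log2 fold change of -0.42 (95% interval -0.71 to -0.13). Col4a2 stood at 320, 449 and 346 TPM with control diet and at 280, 277 and 279 TPM on PLX5622. Its libraries split in the same manner, with control replicate 2 highest and a spread of 1.29 TPM (SD, n = 3) among the PLX5622 libraries, and the log2 fold change was -0.40 (95% interval -0.70 to -0.10). In the authors' deposited table the log2 fold changes are -0.42 (SE 0.145) for Col4a1 and -0.40 (SE 0.151) for Col4a2. Without control replicate 2 the limma values were -0.28 for Col4a1 and -0.26 for Col4a2, and Col4a2 moved by more than 1.5 times.

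The pair kept a nearly fixed ratio. Col4a1 over Col4a2 was 1.77, 1.72 and 1.74 in control replicates 1 to 3 and 1.76, 1.68 and 1.72 in PLX5622 replicates 1 to 3. The protomer of these chains holds more alpha1 than alpha2, and the transcripts likewise stood above a ratio of 1 in each library. The SD of the log2 ratio over the 6 libraries was 0.028, the lowest of the 45 pairs that the 10 genes form, whose median was 0.32 and highest value 0.67, for Lama5 and Lamb1. Among 9426 genes averaging 10 TPM or more, Col4a2 had the smallest such SD against Col4a1, the next gene stood at 0.086, and the median was 0.32. Among 363 pairs of genes with overlapping promoter windows on opposite strands and an average of 10 TPM or more, 0 had a smaller SD than the collagen pair, and their median was 0.22. These are descriptions over 6 libraries that share both diets, and the other genes and pairs were not matched to the collagen genes for level or read number. Without control replicate 2, the library highest in both genes, Col4a2 took place 2 among the genes set against Col4a1. The next pairs in order of SD joined Hspg2 to Col4a1 (0.13) and to Col4a2 (0.14), so the lowest SDs were among the 3 most abundant of the 10 genes.

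**Figure D3:**
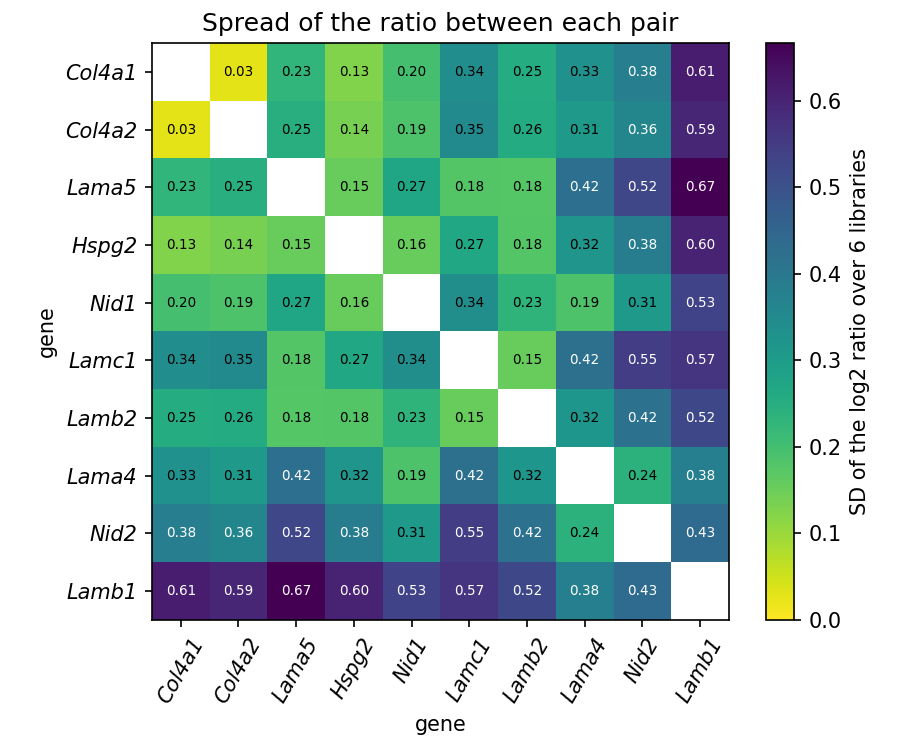
SD over 6 libraries of the log2 ratio between each pair of genes, written in each square and shown by colour, with genes ordered by log2 fold change. The Col4a1 and Col4a2 square, at 0.03, is the lowest, and squares with Lamb1 run from 0.38 to 0.67.

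The other collagen IV chain genes, whose products form the networks of kidney and other specialised membranes, were near the limit of detection. Col4a4 stood at 1.78 ± 0.464 TPM with control diet and 2.07 ± 0.310 TPM on PLX5622, and Col4a3 at 1.23 ± 0.407 and 0.951 ± 0.0606 TPM (SD, n = 3 each). Col4a5 was between 0.356 and 1.31 TPM, and Col4a6 was at most 0.462 TPM and at 0 in control replicate 2.

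The laminin alpha chains were led by Lama4, with Lama5 lower in each library. Lama5, the alpha chain of laminins that bind integrins strongly, stood at 104, 91.9 and 90.4 TPM in control replicates 1 to 3 and at 85.0, 64.4 and 79.7 TPM in PLX5622 replicates 1 to 3. The diets did not overlap, and PLX5622 replicate 2 was the lowest library, with a log2 fold change of -0.32 (95% interval -0.61 to -0.033). Without PLX5622 replicate 2 it was -0.21, a move of more than 1.5 times. Lama4, the alpha chain that endothelium makes most widely, stood at 137, 205 and 193 TPM with control diet and at 140, 195 and 195 TPM on PLX5622. The diets overlapped fully, and the low values were in replicate 1 of each diet, the libraries with the lowest sum of sinusoidal markers; the part of those cells in the Lama4 level was not tested. Its log2 fold change was -0.0070 (95% interval -0.45 to 0.44), positive with quantile normalization (0.0086), median-of-ratios scaling (0.0053) and voom (0.016), and from -0.19 without control replicate 1 to 0.15 without PLX5622 replicate 1. Lama4 made up 56.9% to 75.2% of the summed alpha4 and alpha5 transcripts, lowest in control replicate 1 and highest in PLX5622 replicate 2.

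The beta chain genes Lamb2 and Lamb1 were at opposite ends of abundance. Lamb2 stood at 250, 255 and 233 TPM with control diet and at 257, 218 and 246 TPM on PLX5622. It was the steadiest member, with a highest library 1.18 times its lowest, overlapping diets and a log2 fold change of -0.036 (95% interval -0.25 to 0.18), which was 0.00090 with quantile normalization and 0.033 without PLX5622 replicate 2. Lamb1 stood at 8.59, 12.6 and 7.67 TPM with control diet and at 8.53, 17.8 and 15.9 TPM on PLX5622. PLX5622 replicates 2 and 3 were above every control library and PLX5622 replicate 1 was within the control range. The log2 fold change was 0.47 (95% interval -0.22 to 1.17), the highest of the 10 members, and the authors' deposited table gives 0.56 (SE 0.294). It was 0.78 without PLX5622 replicate 1 and 0.28 without PLX5622 replicate 2, each more than 1.5 times from the value with all libraries. Lamb1 made up 3.18% to 7.58% of the summed beta chain transcripts.

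Markers of other cells varied beside Lamb1. Krt19, a keratin of bile duct cells, stood at 1.09, 5.81 and 0.559 TPM in control replicates 1 to 3 and at 0.635, 10.9 and 6.60 TPM in PLX5622 replicates 1 to 3, so the same 3 libraries were high in both genes, which was noticed after the values were seen. Epcam and Krt7 were highest in these 3 libraries as well. The other markers of the list were not: Cldn7 was lowest in them, at 2.86 to 3.94 TPM against 5.11 to 6.81 TPM, and Spp1 and Sox9 were higher in control replicate 1 (24.9 and 0.795 TPM) than in PLX5622 replicate 3 (18.8 and 0.404 TPM). The 6 cholangiocyte markers summed to 20.3 to 83.5 TPM with control diet and 8.36 to 55.7 TPM on PLX5622, and 1 of them, Krt7, was at 0 in some libraries. Lrat, a stellate cell gene, stood at 0.578, 2.34 and 1.18 TPM and at 1.59, 2.86 and 2.53 TPM in the same order. It was highest in the same 3 libraries as Lamb1, control replicate 2 and PLX5622 replicates 2 and 3. So were Dcn, Reln, Rgs5, Pdgfrb and Lum of the stellate cell and fibroblast list, while the other markers of that list were not. The 15 stellate cell and fibroblast markers, of which 1, Ngfr, was at 0 in a library, summed to 472 to 490 TPM with control diet and 489 to 553 TPM on PLX5622, but most of that sum was Ecm1, at 377 to 481 TPM. The fibrillar collagen gene Col1a1 was between 0.477 and 2.94 TPM, far below Col4a1, and Des between 1.01 and 3.77 TPM. The smooth muscle gene Acta2 stood at 4.25 to 12.9 TPM. The part of these cells in the Lamb1 values was not tested.

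**Figure D4:**
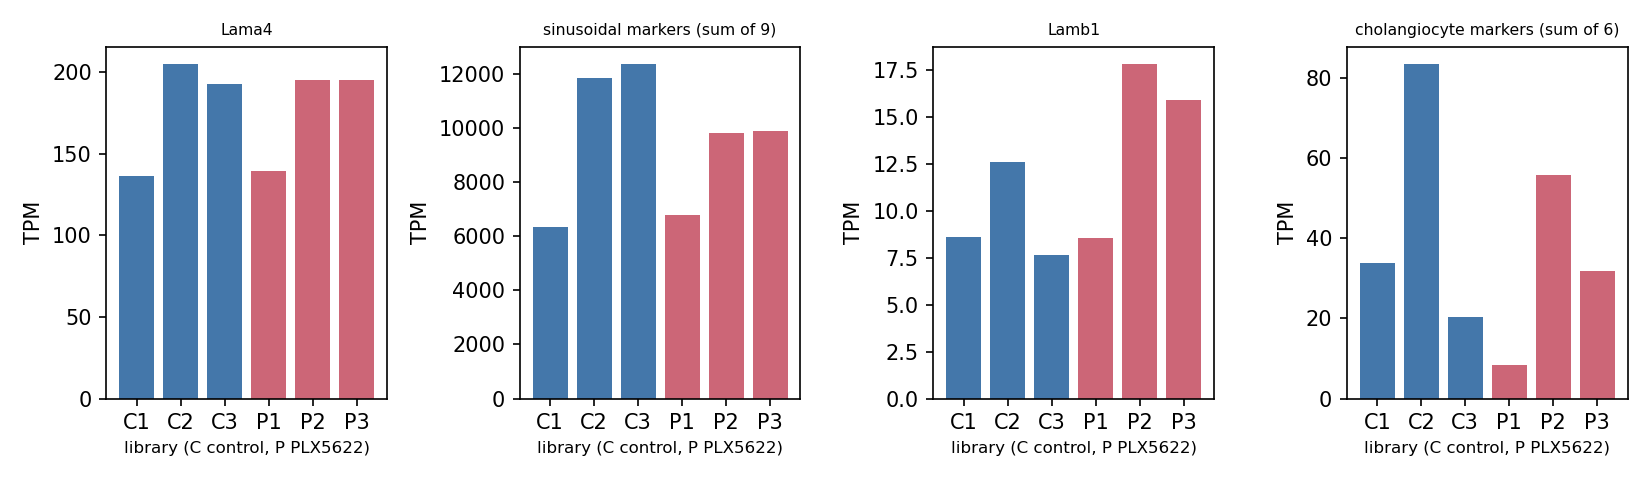
Level in TPM in each library (C, control; P, PLX5622; numbers are replicates) of Lama4, of the summed 9 sinusoidal markers, of Lamb1 and of the summed 6 cholangiocyte markers, each on its own axis from 0. Lama4 and the sinusoidal sum are lowest in replicate 1 of both diets. Lamb1 is highest in PLX5622 replicates 2 and 3 and control replicate 2. The cholangiocyte sum, highest in control replicate 2 and PLX5622 replicate 2, is higher in control replicate 1 than in PLX5622 replicate 3.

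Lamc1, the gamma chain of nearly all vascular laminins, stood at 123, 91.9 and 89.0 TPM with control diet and at 98.9, 85.9 and 102 TPM on PLX5622. The diets overlapped, control replicate 1 was the highest library, and the log2 fold change was -0.069 (95% interval -0.40 to 0.26). It was 0.077 without control replicate 1 and 0.0054 without PLX5622 replicate 2. A laminin trimer holds 1 chain of each kind, but the alpha chain transcripts summed to 1.95 to 3.23 times Lamc1 and the beta chain transcripts to 2.10 to 2.91 times Lamc1, with control replicate 1 lowest in both ratios. Of the other laminin chain genes only Lama3 passed the filter, at 10.7 ± 2.77 TPM with control diet and 9.26 ± 2.64 TPM on PLX5622 (SD, n = 3 each). Lama1, Lama2, Lamb3 and Lamc3 had means under 1 TPM.

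The linker genes divided by abundance. Nid1, the main nidogen, stood at 195, 260.3 and 261 TPM with control diet and at 186, 195 and 228 TPM on PLX5622. The diets overlapped through control replicate 1, and the log2 fold change was -0.23 (95% interval -0.55 to 0.095). Without control replicate 1 it was -0.37, a move of more than 1.5 times. Nid2 stood at 9.62, 23.7 and 14.8 TPM with control diet and at 13.0, 15.2 and 18.2 TPM on PLX5622, with the PLX5622 values inside the control range. Its log2 fold change of 0.028 (95% interval -0.67 to 0.73) turned to -0.27 without control replicate 1 and to -0.088 without PLX5622 replicate 3, and was 0.34 without control replicate 2, and the authors' deposited table has -0.038 (SE 0.292). The ratio of Nid1 to Nid2 was highest in control replicate 1, at 20.3, and was 14.2, 12.8 and 12.5 in PLX5622 replicates 1 to 3.

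Hspg2, whose product carries heparan sulfate chains that hold growth factors, stood at 442, 538 and 471 TPM with control diet and at 408, 339 and 426 TPM on PLX5622. Every PLX5622 library was lower than every control library, although PLX5622 replicate 3 and control replicate 1 were close. The log2 fold change was -0.31 (95% interval -0.59 to -0.030) and -0.30 (SE 0.134) in the authors' deposited table. Over the whole set, the 10 genes summed to 2157, 2699 and 2306 TPM with control diet and to 1969, 1873 and 2068 TPM on PLX5622, or 0.187% to 0.270% of all TPM. The PLX5622 libraries were lower than the control libraries in that sum, and collagen IV held most of the gap, with 888, 1220.2 and 946 TPM with control diet and 773, 743 and 757 TPM on PLX5622. The summed laminin chains stood at 630.1 ± 22.9 and 603 ± 31.7 TPM (SD, n = 3 each), and the diets overlapped.

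Other genes of the membrane and its surroundings gave no call with limma in either direction. Of 21 further components 15 were tested, 6 above 0 and 9 below with a median log2 fold change of -0.13, and 0 had an unadjusted p under 0.05. The most abundant were Egfl7, a secreted vascular protein, at 1754 ± 69.2 TPM with control diet and 1921 ± 144 TPM on PLX5622, Tinagl1, a matricellular protein, at 1523 ± 72.0 and 1323 ± 75.1 TPM, and Sparc, a collagen-binding glycoprotein, at 850.3 ± 168 and 708 ± 101 TPM (SD, n = 3 each). Tinagl1 was the 1 component with every PLX5622 library lower, at a log2 fold change of -0.20 (95% interval -0.43 to 0.020). Of 11 receptors 10 were tested, with a median of -0.10 and 4 above 0. The shared integrin subunit gene Itgb1 was at -0.16 (95% interval -0.44 to 0.13), the collagen-binding integrin gene Itga1 at -0.21 (95% interval -0.55 to 0.13) and the laminin receptor gene Bcam at 0.0096 (95% interval -0.49 to 0.51). Ddr2, a collagen receptor of mesenchymal cells, was the 1 receptor gene with an unadjusted p under 0.05 and had 1.02, 0.760 and 0.215 TPM with control diet and 1.35, 3.61 and 2.00 TPM on PLX5622. Ddr2 was also the 1 receptor gene with every PLX5622 library higher. Dag1, the dystroglycan gene, was the 1 receptor gene with every PLX5622 library lower. It stood at 158, 147 and 142 TPM with control diet and 135, 123 and 141 TPM on PLX5622. Its log2 fold change was -0.16 (95% interval -0.38 to 0.046). Over all genes tested, every PLX5622 library was lower in 4.5% and higher in 4.18%.

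All 17 genes of collagen folding, modification and export were tested, 4 above 0 and 13 below, with a median of -0.076 and 0 at an unadjusted p under 0.05 (limma). P4hb, a subunit of prolyl hydroxylase, was at -0.14 (95% interval -0.39 to 0.12), the collagen chaperone gene Serpinh1 at -0.17 (95% interval -0.69 to 0.35) and the prolyl isomerase gene Ppib at -0.0023 (95% interval -0.20 to 0.20). P4ha2, a catalytic subunit of prolyl hydroxylase, had the smallest p in the list and stood at -0.43 (95% interval -0.95 to 0.079). Of 7 genes for matrix proteases and their inhibitors 6 were tested, 5 above 0, with a median of 0.082 and 2 at an unadjusted p under 0.05, both higher (limma). These were the inhibitors Timp2, at 154 ± 1.92 TPM with control diet and 198 ± 30.8 TPM on PLX5622, and Timp3, at 1292 ± 116 and 1551 ± 119 TPM (SD, n = 3 each). Timp2 was the 1 tested gene of this list with every PLX5622 library higher, and none had every PLX5622 library lower. The protease gene Adamts1 was at 0.053 (95% interval -0.47 to 0.58). No gene in these lists passed the adjusted threshold.

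**Figure D5:**
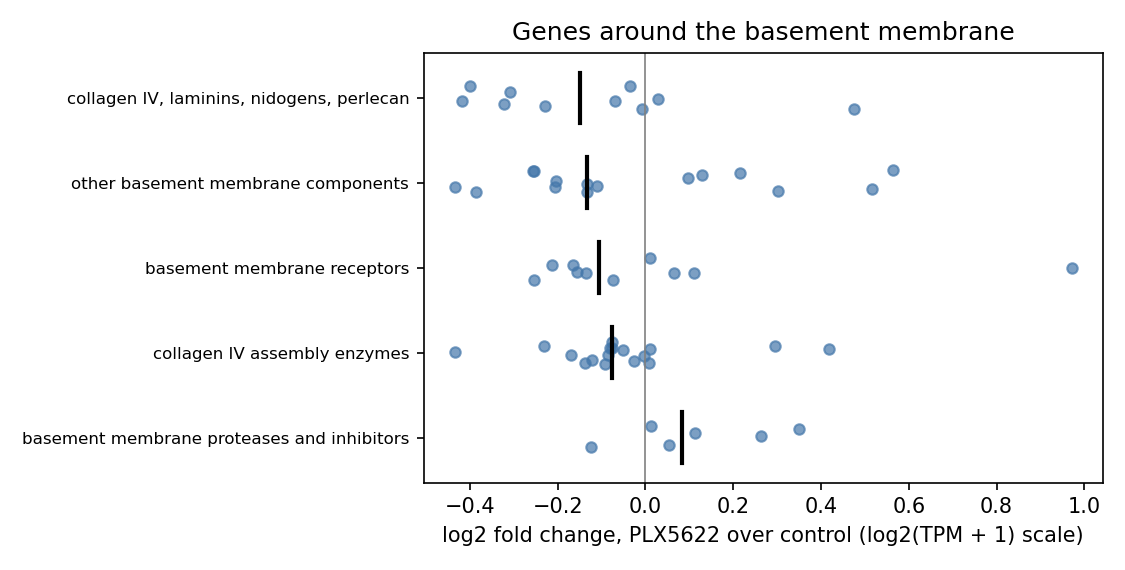
Difference in log2(TPM + 1), PLX5622 minus control, for each tested gene of 5 groups, with 1 point per gene and a bar at the median. Medians run from -0.15 for the 10 members to 0.082 for proteases and inhibitors, and the point at 0.97 is Ddr2.

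Averaged after centring each gene, the log2 profile of the 10 members was highest in control replicate 2, at 0.26, and lowest in PLX5622 replicate 1, at -0.15. The genes closest to this profile among 9195 averaging 10 TPM or more were Nup85, Arhgap25, Exoc7, Mrps10 and Rnf26, with root mean square differences of 0.016, 0.028, 0.035, 0.036 and 0.036 on the log2 scale over 6 libraries. The members themselves were farther from their own mean, from 0.12 for Nid1 to 0.42 for Lamb1, and the median over the 9195 genes was 0.20. A flat profile would stand at 0.13. The named genes were picked as the closest, so nothing is read from the members being farther.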

How the data were processed

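Polyadenylated RNA of sorted liver endothelial cells was measured in 6 libraries, 3 per diet, grouped and numbered by their titles. The submitters' processing notes name the build mm39 and, among tools, DESeq2 1.32.0 and R 4.1.0, STAR 2.7.10a, Subread 2.0.1 and featureCounts. Their settings and the annotation are not stated in the labels. The authors' deposited expression table holds TPM for 26264 genes, each library summing to 1000000. The authors' deposited comparison table holds, for 15097 genes, a mean normalized count (a signal averaged over libraries), a log2 fold change with its standard error, a Wald score and p-values. Those fold changes are of PLX5622 over control by their sign against the TPM.

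The 13739 genes averaging 1 TPM or more entered a limma 3.58.1 fit (R 4.3.3) of log2(TPM + 1), using its trend option, and p-values were adjusted by Benjamini-Hochberg with 0.05 as threshold; 12525 were left out. Reads were recovered from TPM, the deposited mean normalized counts and median-of-ratios factors: 100% of values below 50 reads lay within 0.05 of a whole number. Read numbers cover counting error only. The read recovery and the limma fit were tested on simulated data. A planned test of neighbouring levels is not used, since the same values set their order. The limma p-values set the difference between diets against the spread between libraries within a diet, moderated across genes. Promoters are RefSeq's. The members and lists were chosen with earlier results of these data known. All members are named, and from the other lists the most abundant genes, up to 3, and the one with the smallest p. Col4a6, Lama1, Lama2, Lamb3, Dag1, Cldn5, Efnb2, Sox17, Lrat, Rgs5, Pdgfrb, Lum, Des, Col1a1, Epcam, Krt7, Sox9 and Ngfr fall outside that rule and were named after their values were seen. The pairings of Krt19 and of the stellate cell and fibroblast markers with Lamb1 were also made after the values were seen. A gene that the rule names is not reported here. Alternatives were other pseudocounts, filters, scalings and fits, voom, a replicate block and leaving out each library.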

Additional observations from a re-analysis of the deposited data

How the results depend on the processing

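Each alternative gave 0 called genes. The median log2 fold change of the members lay between -0.27 and -0.13 without single libraries and between -0.20 and -0.12 under the other settings. The number of members below 0 was 6 to 9 without single libraries and 6 to 8 otherwise. The number with every PLX5622 library lower was 4 to 5 and 3 to 4, the 3 with quantile normalization. Leaving out a library cannot lower that count, so at least 4 were bound to remain. No share over all genes was computed for these smaller sets, and nothing is read from the 4 to 5. Each member's fold change moved by less than the spread between replicates under each alternative. By SD of its ratio to Col4a1, Col4a2 took place 1 to 2 without single libraries, with place 2 only without control replicate 2, where the cause was not tested. Same-numbered libraries deviated together with correlations of 0.20, 0.14 and 0.087, and each library correlated best with its own number. Nothing in the labels says that the numbers pair animals, so the main fit did not pair them. With the replicate block limma called 0 genes, with 821 rather than 459 at an unadjusted p under 0.05. In this balanced design a block cannot change a fold change, so the member median was bound to stay at -0.15. Other filters, limma without a trend and robust limma also left each member's fold change as it was. Intervals did change. Without a trend that of Lama5 was -0.67 to 0.025 and that of Hspg2 -0.65 to 0.033. With voom that of Hspg2 was -0.58 to 0.0026. Each also held 0 without PLX5622 replicate 2 or control replicate 2, Lama5 without control replicate 1 and Hspg2 without control replicate 3. That of Nid1 lay below 0 with library weights and without control replicate 1, and that of Lamb1 above 0 without PLX5622 replicate 1. The block changed intervals too. That of Nid1 was -0.45 to -0.0062 rather than -0.55 to 0.095. The SE of Lama4 was 0.071 rather than 0.19, while that of Hspg2 alone rose, from 0.120 to 0.124. Lamb1 and Nid2 had the fewest reads of the members, with 224 for Lamb1 in control replicate 3 as the lowest value. The part of depth in their spread was not tested.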
